A study of Homo sapiens with 20 samples.

Results

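Chromatin RNA of cells depleted of Dicer was compared directly with chromatin RNA of cells depleted of Ago2, using the 2 shDicer and the 2 shAgo2 chrRNA-seq samples, 4 of the 20 samples of the series and 4 of its 8 chromatin samples. The comparison asks in which genes the chromatin-bound transcripts of the 2 lines differ. The labels give the cells as HEK293, a human embryonic kidney line, and describe both as inducible lines carrying an integrated construct with a short hairpin RNA, against DICER mRNA in shDicer and AGO2 mRNA in shAgo2. Both were incubated with 3 µg/ml doxycycline for 72 h. The study's methods name the inducible lines HEK293T-REx and the wild type HEK293T. They also list a HEK293T-REx clone that holds tagged Dicer together with the DICER hairpin, and do not say from which line the shDicer chromatin came. The 2 wt chromatin samples are labelled wild type, and the 2 DroshaKD samples were transfected with hairpin plasmids against DROSHA mRNA. The sources used here do not state whether those 4 received doxycycline, so their levels are given without a test. They did enter the same fit, and share in its filter, scaling and estimate of spread. Each hairpin is represented by its own line, and no line with a control hairpin was analysed here, so a difference belonging to the hairpin and a difference belonging to the line cannot be told apart. The labels number the replicates without saying that they are separate cultures, so the p-values measure the spread between these samples, which may be technical.

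Dicer is the ribonuclease that cuts hairpin precursors into microRNAs and cleaves some tRNAs into tRNA-derived small RNAs (tsRNAs). Ago2 is an Argonaute protein that holds such a small RNA and uses its bases near the 5′ end, the seed, to pair with target RNAs. RNA bound to chromatin holds many transcripts that are still being made, and its level is closer to synthesis than that of total RNA.

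Among the transcripts that separated the lines was MIR222HG (chrX:45745210-45770274, GRCh38, minus strand), the host transcript of miR-221 and miR-222. Their mature sequences in RefSeq on GRCh38.p14 are shown because the 2 main arms carry the same seed (bases 2 to 8, in capitals), while the third sequence has another. The first lies at chrX:45746180-45746202, the second at chrX:45747036-45747056 and the third at chrX:45747073-45747094, all within MIR222HG and on its strand.
hsa-miR-221-3p: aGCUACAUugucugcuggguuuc
hsa-miR-222-3p: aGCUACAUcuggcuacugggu
hsa-miR-222-5p: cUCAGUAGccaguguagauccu

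The study also designed synthetic tsRNAs against genes that it assayed by other means. They are shown, again with bases 2 to 8 in capitals, because their targets SPINT1, LINC00665, EGFR, MET and BCL2 are among the genes whose levels are compared here.
tsRNA SPINT1: cGAGUCUCgguggaaccuuugu
tsRNA LINC00665: gGGGGUGUagcucaguggua
tsRNA EGFR/MET: uCCCUGGUggucuagugguuag
tsRNA BCL2: uAAGCCAGggauuguggguucg

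Estimated counts summed to between 19663638 and 21553760 in the 4 samples. Levels are counts scaled to library size (CPM) with TMM factors, differences are shDicer minus shAgo2 on the log2 scale, and a gene passed at an adjusted p under 0.005 in edgeR's quasi-likelihood test. The median absolute log2 difference between the replicates was 0.176 in shDicer and 0.127 in shAgo2. Of 32874 genes tested, 450 (1.37%) were higher in shDicer and 441 (1.34%) higher in shAgo2, 2.71% in all. All 891 had samples that did not overlap between the 2 lines. With 2 samples per line, a gene that passes the test is likely to separate in this way, so this adds no support. The median difference over all tested genes was 0.00344. The genes higher in shDicer had a median log2 difference of 0.745, and 115 of them exceeded 1. Those higher in shAgo2 had a median of −0.795, and 174 exceeded 1 in size. The counts fell to 56 and 73 without shAgo2 replicate 1, to 36 and 71 without shAgo2 replicate 2, to 234 and 164 without shDicer replicate 1, and to 302 and 273 without shDicer replicate 2. They also fell to 121 and 123 when transcripts without a GENCODE gene were kept as features of their own, and to 191 and 192 with counts scaled from TPM.

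Of the genes the hairpins target, DICER1 (chr14:95086228-95158010) had 107 and 108 CPM in the shDicer samples against 204 and 214 in the shAgo2 samples, a log2 difference of −0.95 (SE 0.09, adjusted p = 0.00011, edgeR). Its wt levels were 119 and 124 CPM, so the shDicer samples lay slightly below wt and the shAgo2 samples well above it. In mRNA-seq, whose wt and shDicer samples are labelled HEK293T and HEK293 2B, the mean DICER1 level was 243 CPM in wt and 88.8 in shDicer (n = 3 each). With counts scaled from TPM the difference of DICER1 was −0.25 and did not pass (adjusted p = 0.173), and without shAgo2 replicate 2 it also missed the threshold (adjusted p = 0.00516). AGO2 (chr8:140520156-140635633) had 222 and 241 CPM in shDicer and 162 and 160 in shAgo2, with 240 and 255 in wt. Both shAgo2 samples were therefore below all shDicer and wt samples, by 0.52 on the log2 scale against shDicer (SE 0.08, adjusted p = 0.00245, edgeR). This call was lost in 8 of 14 other fits, and the value fell to 0.14 with counts scaled from TPM.

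Of the 21 small RNA pathway genes, all of them tested, 2 were higher in shDicer (9.52%, against 1.37% of all genes). In shAgo2 1 was higher (4.76%, against 1.34%), and the list median was −0.06. Besides the 2 targeted genes only TARBP2, the RNA-binding partner of Dicer, passed. It had 40.6 and 39.8 CPM in shDicer and 21.3 and 23 in shAgo2, against 43.9 and 44.1 in wt. The shAgo2 samples were the low ones, at a log2 difference of 0.86 (SE 0.08, adjusted p = 8.59e-05, edgeR). TARBP2 lies on chromosome 12, where its neighbours had a median of 0.50, and relative to them its difference was 0.36 and did not pass (adjusted p = 0.0259). The microprocessor genes DROSHA and DGCR8 differed by −0.11 and −0.10, and the other Argonaute genes AGO1, AGO3 and AGO4 by 0.04, −0.01 and 0.07, none of which passed. The precursor exporter XPO5 had −0.36 (adjusted p = 0.0422, edgeR) beside a neighbour median of −0.32.

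**Figure D1:**
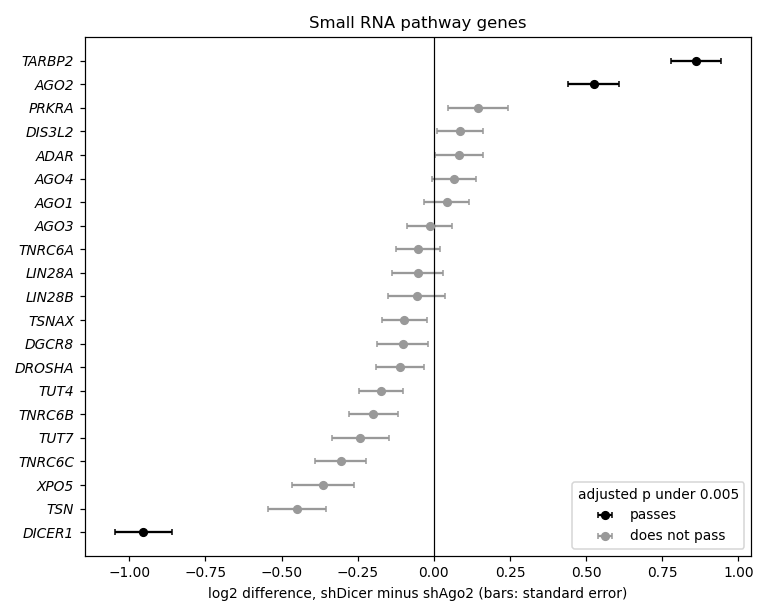
Log2 difference of shDicer minus shAgo2 (horizontal, with its standard error) of the 21 small RNA pathway genes. The 3 black genes passed, with DICER1 at −0.95, AGO2 at 0.52 and TARBP2 at 0.86, and the others lay between −0.45 and 0.14.

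Among well detected genes (a mean of 3 or more in log2 CPM), the 12 with the largest differences towards shAgo2 included some in which shAgo2 stood above wt and some in which shDicer stood below it. TENM1 (chrX:124375903-125204312), a teneurin that links neighbouring cells, had 8.05 and 10.9 CPM in shDicer and 317 and 293 in shAgo2. Since wt had 6.17 and 6.57 and DroshaKD 10.3 and 9.47, the shAgo2 samples alone were high, with a log2 difference of −5.01 (SE 0.12, adjusted p = 5.3e-10, edgeR). SYT11, a synaptotagmin of vesicle traffic, had 15.1 and 15.4 CPM in shDicer and 57.1 and 52.9 in shAgo2, and the shDicer samples were at the wt level of 15.7 and 15.2 (log2 difference −1.85). The non-coding ALOX12P2 went the same way, with 20.8 and 18.5 against 50 and 59.7 CPM (log2 difference −1.48, wt 18.4 and 17.5).

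PXDN (chr2:1631887-1744852), a peroxidase that crosslinks collagen IV, showed the reverse arrangement. It had 5.37 and 4.66 CPM in shDicer and 83.4 and 77.3 in shAgo2, with 114 and 123 in wt, so it was the shDicer samples that were low (log2 difference −4.0, SE 0.12, adjusted p = 4.4e-09, edgeR). In mRNA-seq its mean was 18.2 CPM in wt and 0.0974 in shDicer. MIR222HG likewise had 9.1 and 11.3 CPM in shDicer and 60 and 66 in shAgo2, with 69.2 and 72.1 in wt and 67.7 and 62.7 in DroshaKD. The 2 shDicer samples stood below the other 6, and the log2 difference was −2.62 (SE 0.11, adjusted p = 9.91e-08, edgeR). In mRNA-seq MIR222HG had a mean of 47.7 CPM in wt and 1.36 in shDicer. The annotated hairpin MIR221 (chrX:45746157-45746266) lies inside the host and had 0 counts in both shDicer samples and 15 and 9 in shAgo2. That is at least 3.88-fold lower in shDicer, taking 3 counts per library as the floor, and reads of the hairpin and of its host transcript cannot be told apart.

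In 4 further genes both lines were below wt and shDicer further. AMOT, a regulator of the Hippo pathway, had 1080 and 1320 CPM in wt, 223 and 204 in shAgo2 and 53.4 and 77.6 in shDicer (log2 difference −1.70). FLNC, an actin crosslinker, had 156 and 167 in wt, 43 and 32.5 in shAgo2 and 6.32 and 6.78 in shDicer (−2.53), and mean mRNA-seq levels of 8.87 CPM in wt and 0.385 in shDicer. GSTP1, which conjugates glutathione, had 41.9 and 37.9 in wt, 10.7 and 12.9 in shAgo2 and 3.16 and 2.7 in shDicer (−2.01). FUOM, a fucose mutarotase, had 27.5 and 25.9 in wt, 5.16 and 4.69 in shAgo2 and 2 and 1.32 in shDicer (−1.57). FLNC passed in every other fit. AMOT, GSTP1 and FUOM kept their direction but did not pass in 2 or 3 of the 14 fits, with adjusted p up to 0.0127, lost when transcripts without a gene were kept or an shAgo2 replicate was left out.

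The 12 well detected genes with the largest differences towards shDicer were led by genes in which the shAgo2 samples were low. LRATD2 (chr8:126552443-126558478) had 88.8 and 94.7 CPM in shDicer and 6.49 and 5.9 in shAgo2, around wt levels of 68.8 and 68.2 (log2 difference 3.88, SE 0.10, adjusted p = 5.3e-10, edgeR). XYLT1 (chr16:17101769-17470960), which starts glycosaminoglycan chains on proteoglycans, had 20.3 and 21.9 in shDicer and 2.7 and 2.51 in shAgo2, with 14.4 and 13.1 in wt (3.01, SE 0.13). For both genes the shAgo2 samples lay far below wt while the shDicer samples lay above it. PDE1C, a phosphodiesterase that breaks down cyclic nucleotides, had 16.9 and 20.4 against 5.26 and 5.4 CPM around a wt level of 15.4 and 15.5 (1.81). OGDHL, a mitochondrial dehydrogenase subunit, had 51.4 and 48.3 against 17.2 and 17.6, both below the wt level of 79.8 and 75 (1.52).

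Among genes that were above wt in both lines and more so in shDicer, MAOA, which oxidises monoamine transmitters, had 42.4 and 60.3 CPM in shDicer, 14.6 and 12.5 in shAgo2 and 3.85 and 5.56 in wt (1.92). Its mean in mRNA-seq was 13.1 CPM in wt and 171 in shDicer. IGFBP5, a binding protein of insulin-like growth factors, had 194 and 269 in shDicer, 87.6 and 73.5 in shAgo2 and 14.5 and 16 in wt (1.52). In a further set shAgo2 was near wt or below it and shDicer above. CHRND, a subunit of the muscle acetylcholine receptor, had 26.1 and 21.6 in shDicer and 8.41 and 7.42 in shAgo2 (1.59, wt 9.01 and 7.96). PAPPA, a protease that cuts such binding proteins, had 16.1 and 18.8 against 6.74 and 4.75 (1.59). TNC, a matrix glycoprotein, had 18.2 and 32.2 against 6.74 and 4.53 (2.15). The shDicer replicates of TNC differed most among these, and its call was lost in 6 of 14 fits.

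U2AF1, a subunit of the factor that recognises the 3′ splice site, had 69.7 and 68.1 CPM in shDicer and 8.02 and 7.97 in shAgo2, with 179 and 212 in wt (log2 difference 3.11). This value is uncertain, because the assembly holds a near-identical artifactual copy of the gene at chr21:6484623-6499248, and reads can be split between them. The transcripts matched to the copy held 0 and 13 counts in shDicer and 0 and 0 in shAgo2, and transcripts of the files without a GENCODE gene were assigned to neither. Of the 11 U2AF1 transcripts in the files, 4 had over 200 estimated counts in both shDicer samples, and 3 of these 4 were listed at 0 in both shAgo2 samples. The share of the difference that comes from the division of reads between copies was not tested. The same holds for CBS, an enzyme of cysteine synthesis, which differed by 0.72 while its annotated copy (chr21:6444869-6467513) differed by −1.70. SLC26A10P shares 48% of its 31-base subsequences with other genes, and it lies on chromosome 12 among neighbours with a median of 0.56 (log2 difference 1.67).

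Of these 24 genes, 18 passed in all 14 other fits, and AMOT, FUOM, GSTP1, IGFBP5, PAPPA and TNC did not pass in some. The rule that selected them left 2 genes that shared most of their sequence with others out of the side higher in shAgo2.

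The zinc finger genes of chromosome 19 that passed were all higher in shAgo2. These genes, most of which encode repressors of transcription, stand in clusters of related copies. Of 243 tested, 24 were higher in shAgo2 (9.88%, against 1.34% of all genes) and 0 were higher in shDicer by edgeR, where 5 were at an unadjusted p under 0.05 and 0 with DESeq2. The list median was −0.20. ZNF43 (chr19:21804946-21852125) had 49.9 and 47 CPM in shDicer and 143 and 141 in shAgo2, both above the wt level of 20 and 19.3 (log2 difference −1.55, adjusted p = 1.24e-06, edgeR). ZNF66 had 5.58 and 9.01 against 22.9 and 23.6 CPM, with wt at 4.45 and 4.74, and ZNF433 had 7.42 and 8.11 against 22.3 and 22.8, with wt at 5.93 and 7.77. ZNF730 was low, at 0.842 and 1.11 against 4.67 and 4.59. In the last 3 genes the shDicer samples were much nearer to wt than the shAgo2 samples. The 50 neighbouring genes between chr19:21358930-23871162 held 12 genes higher in shAgo2. Neighbours of a listed gene can be other listed genes, so a count relative to neighbours cannot separate family and region. Relative to their neighbours, 16 of the list still passed, and without shAgo2 replicate 1 or 2 the count was 11.

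Clustered protocadherins of chromosome 5 encode cell surface proteins of which each neuron uses a different subset. Of 42 tested, 12 were higher in shAgo2 (28.6%, against 1.34% of all genes) and 2 in shDicer (4.76%, against 1.37%), with a median of −0.35. Relative to their neighbours, 2 passed in each direction. Those neighbours include other protocadherins of the cluster, so this count cannot separate a shift of the family from one of the region. PCDHGB1 had 1.58 and 1.38 CPM in shDicer and 8.26 and 8.13 in shAgo2, while wt had 0.296 and 0.632 (log2 difference −2.47, adjusted p = 3.27e-05, edgeR). PCDHGA4 had 1.32 and 0.954 against 4.43 and 4.37, and PCDHB12 0.0526 and 0.159 against 1.13 and 1.31. In the opposite direction were PCDHA11 at 1.88 and PCDHAC2 at 0.99, named here after their values were seen. Members of the gamma cluster share constant exons, and PCDHGB1 shares 54% of its subsequences with other genes, so the division of reads among them is uncertain. The count of 12 fell to 7 with DESeq2 and to 2 when transcripts without a gene were kept, when either shAgo2 replicate was left out and when shDicer replicate 1 was left out.

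Of 48 tested genes of neuronal and synaptic adhesion, 3 were higher in shAgo2 (6.25%, against 1.34% of all genes) and 0 in shDicer by edgeR. Towards shDicer DESeq2 called 1, and 6 were at an unadjusted p under 0.05. The list median was −0.02. ADGRL3 (chr4:61200326-62078335), a latrophilin that binds teneurins, had 1.16 and 1.38 CPM in shDicer, 45.6 and 44.1 in shAgo2 and 4.68 and 4.74 in wt (log2 difference −5.14, SE 0.14, adjusted p = 9.32e-10, edgeR). LSAMP (chr3:115802374-117139389), a limbic adhesion protein, had 4.05 and 4.82 against 24.3 and 24.3 CPM, with wt at 2.25 and 2.59 (−2.45). TENM1, given above, was the third. Voltage-gated and ligand-gated channels split, with 12 of 163 passing towards shDicer (7.36%, against 1.37% of all genes), 6 towards shAgo2 (3.68%, against 1.34%) and a median of 0.10. The kainate receptor GRIK3 had 4.74 and 5.46 against 0.639 and 0.819 CPM (2.80), and the GABA receptor subunit GABRQ 3.26 and 3.55 against 0.492 and 0.655 (2.57). In GRIK3 shDicer but not shAgo2 was above wt (wt 1.07 and 0.884).

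NRG3 (chr10:81875194-82987179), a neuregulin ligand of ERBB4, had 64.9 and 58.4 CPM in shDicer and 0.393 and 0.437 in shAgo2, and the latter were near the wt levels of 0.593 and 0.758 (log2 difference 7.19, SE 0.17, adjusted p = 5.3e-10, edgeR). It was 1 of 4 genes higher in shDicer among 77 tested growth factors and secreted ligands (5.19%, against 1.37% of all genes). Of that list VEGFC alone passed in the other direction (1.3%, against 1.34%). WNT5B had 22.3 and 21.7 against 12.8 and 12.6 CPM (0.79) and lies on chromosome 12, where relative to its neighbours its difference was 0.31 and did not pass (adjusted p = 0.151, edgeR). Of 68 axon guidance genes 6 were higher in shDicer (8.82%, against 1.37% of all genes) and 2 in shAgo2 (2.94%, against 1.34%). SLIT3 had 54 and 59.8 against 33.2 and 28.7 CPM (0.88) and the ephrin receptor EPHB2 56 and 63.3 against 34.9 and 33.8 (0.80). The receptors EPHA5 and EPHA6 were the 2 in the other direction, with 7.53 and 8.37 against 19 and 18.4 CPM (−1.24) and 19.4 and 23 against 45.1 and 41.2 (−1.03). Of 38 receptor tyrosine kinases outside the ephrin family 0 passed in edgeR and 0 in DESeq2, with 16 at an unadjusted p under 0.05.

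Collagens, laminins and other matrix genes had 6 of 103 higher in shDicer (5.83%, against 1.37% of all genes). In shAgo2 3 were higher (2.91%, against 1.34%), and the list median was 0.03. COL6A1, a collagen VI chain, had 117 and 138 CPM in shDicer and 48.1 and 40.3 in shAgo2, and wt, with 138 and 141, was at the shDicer level (1.53). GPC3, a glypican, was among those higher in shAgo2, with 26.4 and 35.2 against 73.2 and 67.6 CPM (−1.19). Integrins had 3 of 20 higher in shDicer (15%, against 1.37% of all genes), with ITGA7, a laminin receptor, at 34.9 and 36.1 against 17.4 and 13.4 CPM (1.20), and 1 higher in shAgo2, ITGA8, at 31.4 and 35.8 against 84.3 and 76.4 (−1.26). ITGA5, ITGB7 and ITGA7 all lie on chromosome 12, and relative to their neighbours ITGA5 (0.31, adjusted p = 0.0767, edgeR) and ITGB7 (0.19, adjusted p = 0.456) did not pass. Intermediate filament genes had 3 of 17 passing, each higher in shDicer (17.6%, against 1.37% of all genes), and DESeq2 also called 2 higher in shAgo2. The simple epithelial keratin KRT19 was listed at 0 in both wt samples and had 27.3 and 30.2 CPM in shDicer and 16.5 and 16.9 in shAgo2 (0.79).

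Of 30 genes of G2 and mitosis 6 were higher in shAgo2 (20%, against 1.34% of all genes) and 0 in shDicer by edgeR. Towards shDicer there were also 0 with DESeq2 and 0 at an unadjusted p under 0.05. The list median was −0.23. MKI67, a marker of dividing cells, had 228 and 264 CPM in shDicer and 446 and 437 in shAgo2, with wt at 262 and 266 (log2 difference −0.85, adjusted p = 0.000197, edgeR). TOP2A, the topoisomerase of mitotic chromosomes, had 163 and 191 against 299 and 307, with wt at 170 and 182 (−0.77). In both genes the shAgo2 samples stood above all wt and shDicer samples. CKAP2L had 13.4 and 14.1 against 22.9 and 24.5 CPM (−0.78), with wt at 21.9 and 18, so there the shDicer samples were the low ones. NUSAP1 differed by −0.53. The calls of MKI67, TOP2A, CKAP2L and NUSAP1 were lost in 2, 5, 8 and 7 of 14 fits. Of 39 DNA replication genes edgeR called MCM5, at −0.48, a call lost in 8 of 14 fits, and DESeq2 called 4 higher in shAgo2. In bulk samples, a larger share of dividing cells and more RNA per cell cannot be told apart.

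The lists of signalling, metabolism and other functions given next had 2 or 3 passing genes each, while heat shock proteins and the Notch pathway had 1 each. Of 26 heat shock genes HSPH1 was higher in shDicer (3.85%, against 1.37% of all genes), at 0.63 and lost in 6 of 14 fits. Of 26 Notch genes MAML2 was higher in shAgo2 (3.85%, against 1.34%), at −0.575 and lost in 8 of 14 fits. Of 37 TGF-beta and BMP genes 3 were higher in shDicer (8.11%, against 1.37% of all genes), with ID2, an inhibitor of differentiation factors, at 44 and 47.2 against 19.2 and 17.5 CPM (1.31). The others were ACVR1B on chromosome 12 (0.79) and SMAD7 on chromosome 18 (0.72, lost in 8 of 14 fits). Relative to their neighbours, ACVR1B (0.30, adjusted p = 0.0442, edgeR) and SMAD7 (0.47, adjusted p = 0.0511) did not pass. Of 32 genes of the ATF4 amino acid response 3 were higher in shDicer (9.38%), namely CBS (0.72, uncertain because of its copy), SLC6A9 (0.80, lost in 9 of 14 fits) and SHMT2 (0.81). Relative to their neighbours on chromosomes 21 and 12, CBS (0.39, adjusted p = 0.0354, edgeR) and SHMT2 (0.29, adjusted p = 0.103) did not pass. Of 32 glycolysis and hypoxia genes TPI1 on chromosome 12 (0.70) and PFKL on chromosome 21 (0.51) were higher in shDicer (6.25%), and neither passed relative to its neighbours (0.26, adjusted p = 0.12, and 0.14, adjusted p = 0.364, edgeR). Of 34 genes of DNA and histone H3 methylation EZH2 (−0.57), JARID2 (−0.56) and CBX1 (−0.55) were higher in shAgo2 (8.82%, against 1.34% of all genes). JARID2 lies on chromosome 6 among neighbours with a median of −0.52, and relative to its neighbours its difference was −0.04 (adjusted p = 0.815, edgeR). The calls of EZH2 and CBX1 were lost in 8 and 7 of 14 fits. In the microRNA host list 2 of 65 passed, MIR222HG and MIR4435-2HG, both higher in shAgo2 (3.08%, against 1.34% of all genes). MIR4435-2HG had 99.6 and 100 CPM in shDicer and 142 and 152 in shAgo2, both above the wt level of 21 and 19.9 (−0.56). Of 30 let-7 target genes DICER1 and TRIM71 passed, both higher in shAgo2 (6.67%, against 1.34% of all genes). DICER1 is also the gene that the shDicer hairpin targets, so its place in this count cannot be set apart from the depletion. TRIM71, a ubiquitin ligase, had 3.47 and 2.91 against 6.15 and 7.59 CPM, both below the wt level of 24.4 and 24.3 (−1.10). Its call was lost in 5 of 14 fits. The interferon list had 1 of 53 genes in each direction (1.89% each, against 1.37% and 1.34% of all genes). IFI16, a DNA sensor, had 0 and 1 counts in shDicer and 32 and 37 in shAgo2, and ISG20 differed by 0.72.

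The genes assayed in the study, 14 of which were tested, had 1 passing gene in each direction (7.14% each, against 1.37% and 1.34% of all genes). LINC00665 (chr19:36259540-36331770), the target of a tsRNA printed above, had 293 and 283 CPM in shDicer and 419 and 421 in shAgo2, and both lines stood far above the wt level of 46 and 46.9 (log2 difference −0.54, SE 0.07, adjusted p = 0.000717, edgeR). SPINT1 (chr15:40844018-40858207) had 16.6 and 20.3 against 15.5 and 14 CPM over a wt level of 1.13 and 1.2, and its difference of 0.33 did not pass (SE 0.12). EGFR had 62.9 and 84.7 against 77.9 and 66.3 (0.03, SE 0.14), so its samples overlapped. MET had 83.9 and 96.8 against 115 and 110 (−0.31, SE 0.10) and BCL2 37 and 39.2 against 39.2 and 39.5 (−0.05, SE 0.08), and neither passed. GK, at 143 and 172 against 128 and 121 CPM, and GUCY1A2, at 21.6 and 23.3 against 24.8 and 24.2, did not pass either, while wt had 16.6 and 18.7 and 1.72 and 2.34. RBP7 (−0.17), CNN3-DT (0.09) and CCN3 (1.27, adjusted p = 0.00836, edgeR) did not pass. CDKN1B, an inhibitor of the cell cycle, had 43.8 and 50.9 against 28.5 and 31.9 CPM (0.65, adjusted p = 0.005, edgeR), which is just inside the threshold and was lost in 9 of 14 fits. The reference genes HPRT1 (−0.06) and GAPDH (0.67, adjusted p = 0.0138, edgeR) and the control ETNK1 (0.51, adjusted p = 0.0134, edgeR) did not pass. However, ETNK1 passed with DESeq2 (adjusted p = 0.00398), and CCN3, GAPDH and ETNK1 passed in edgeR without a low-count filter. GAPDH and ETNK1 lie on chromosome 12 among neighbours with medians of 0.45 and 0.18.

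Part of the difference ran along chromosomes. Tested genes were divided by position into 643 windows of 50 genes, whose medians had an SD of 0.14. Of 18 windows with a median of at least 0.3, 11 lay on chromosome 12, and of 16 windows at or below −0.3, 13 lay on chromosome 6. By whole chromosome, chromosome 18 had the largest median, 0.198, and 4.68% of its genes were higher in shDicer, against 1.37% of all genes. Runs of at least 3 adjacent windows beyond 0.2 in size, a limit chosen after the values were seen, formed 7 segments with 6.86% of the tested genes and 27.9% of the passing genes. Within them 11% of genes passed, and outside 2.1%. The segments were picked by the differences of these same genes, so a higher share and a common sign within them follow from that choice.

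The segment chr6:131910-73509236 held 850 genes with a median of −0.36, and 83.2% of them were negative. There 85 genes were higher in shAgo2 and 1 was higher in shDicer. Relative to the wt mean the median gene was at −0.10 and −0.04 in the shDicer samples, and at 0.21 and 0.19 in the shAgo2 samples, so the 2 lines lay on opposite sides of wt. On chromosome 12 the segments chr12:14522-7018477 (150 genes) and chr12:29337352-57896482 (500 genes) had medians of 0.48 and 0.43, with 28 and 84 passing genes, each of them higher in shDicer. In the longer one the shDicer samples were at 0.14 and 0.13 relative to wt, and the shAgo2 samples at −0.23 and −0.24. A run on chromosome 10 (chr10:15778170-42638570, median −0.28) had 13 genes higher in shAgo2, and the end of chromosome 21 (chr21:33057829-45305257, median 0.32) had 22 higher in shDicer. On chromosome 20, chr20:49280319-63956416 had 13 genes higher in shDicer at a median of 0.27, and all 4 samples there were below wt.

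The window with the largest median, 0.57, was on chromosome 12 and held SLC26A10P, NXPH4 (1.57) and ENSG00000287908 (1.46, with 92% of its subsequences shared). The window with the smallest, −0.53, was on chromosome 6 and held KLHL31, at 3.1 and 3.39 against 6.59 and 6.22 CPM (−0.98), with the non-coding ENSG00000227885 (−1.0) and ENSG00000272316 (−0.92). The calls of NXPH4, KLHL31 and ENSG00000227885 were lost in 10, 10 and 9 of 14 fits. Relative to their neighbours, SLC26A10P passed and the other genes named for these windows did not, with KLHL31 at −0.47 (adjusted p = 0.123, edgeR). With each gene taken relative to its neighbours, 161 genes passed as higher in shDicer and 194 as higher in shAgo2.

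The wt level lay nearer to shDicer in some genes and nearer to shAgo2 in others. Of the 450 genes higher in shDicer, wt lay between the lines in 190, above both in 145 and below both in 115, and it was nearer to shDicer in 261 and to shAgo2 in 189. Of the 441 genes higher in shAgo2, wt lay between the lines in 168, above both in 65 and below both in 208, and it was nearer to shDicer in 306 and to shAgo2 in 135. Both lines are set against the same 2 wt samples in these counts.

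By gene class, 16672 protein-coding genes had 382 passing towards shDicer and 323 towards shAgo2, and 9548 long non-coding RNAs had 43 and 68. Of 3122 processed pseudogenes 10 and 28 passed. Over all 32874 tested genes the counts were 450 and 441 (1.37% and 1.34%). In both directions protein-coding genes passed at a higher rate than all genes. Long non-coding RNAs and processed pseudogenes passed at a lower rate. The cell identity check gave 393 and 542 CPM summed over 6 HEK293 markers in shDicer, 409 and 454 in shAgo2 and 595 and 654 in wt. Of these 6, NEFM (1.42, at 2.32 and 2.7 against 1.18 and 0.655 CPM, wt 24.1 and 24.8) and KRT18 (0.79, on chromosome 12) were higher in shDicer, and relative to its neighbours KRT18 was at 0.26 and did not pass (adjusted p = 0.262, edgeR). Markers of absent lineages summed to between 20.6 and 23.3 CPM in the 4 samples. Mitochondrially encoded genes, which are not bound to nuclear chromatin, summed to 6370 and 5650 CPM in shDicer and 7390 and 7510 in shAgo2. Their part in the differences above was not tested.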

How the data were processed

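Chromatin RNA was sequenced after a NEBNext Ultra II library preparation (per the labels). The authors quantified transcripts with kallisto, strand-aware, to spliced human transcript sequences, coding and non-coding, and deposited for each transcript an estimated count, not normalized, and a TPM, scaled by effective length. The comparison, genes and lists were chosen with earlier results of these data known.

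Of 217082 transcripts, 193697 (89.2%) matched a gene of GENCODE release 44 (GRCh38) and held between 93.4% and 94.8% of the counts. Estimated counts were summed per gene and rounded. Low counts were removed with filterByExpr, leaving 32874 genes. All 8 chromatin samples entered 1 fit in edgeR 4.0.16 (R 4.3.3) with TMM factors between 0.968 and 1.05, a term per group and no block, and shDicer was contrasted with shAgo2 at a Benjamini-Hochberg adjusted p under 0.005. The common coefficient of variation was 0.0739. A count of 3 corresponds to between 0.148 and 0.189 CPM, and covers counting error only. mRNA-seq levels are CPM scaled in the same way within that assay, and were not tested. Counts of the replicates differed by more than sampling noise (chi-square per degree of freedom 6.39 in shDicer and 2.34 in shAgo2).

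In simulated data for this contrast with 32188 genes, edgeR recovered 80 of 100 genes changed by 1 on the log2 scale and 99 of 100 changed by 2, with 0 false calls. There every gene varied independently with the common coefficient of variation, and only well counted genes were changed. The real samples have unequal replicate spread and runs along chromosomes, so the simulation does not give the rate of false calls among the passing genes. Named genes are those of the small RNA pathway and of the study's assays, the 12 largest and 12 smallest differences among passing, non-overlapping genes that averaged 3 or more in log2 CPM, with a symbol and under 50% of subsequences of 31 bases shared, up to 4 passing members per list, and up to 3 genes of the 2 extreme windows. Alternatives were DESeq2 1.42.0, RLE factors, library size only, no or a stricter filter, the 4 samples alone, counts scaled from TPM, unmatched transcripts kept, another threshold, an absolute log2 difference above 1, a neighbourhood offset (each gene relative to 50 neighbours), a replicate block, and leaving out each sample. Small RNA-seq was not analysed here, and 1 named gene is not reported here.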

Additional observations from a re-analysis of the deposited data

Results flagged for a closer look

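In 5 of the 24 genes plotted by sample, which are the 12 largest differences in each direction among well detected genes with a symbol and little shared sequence, every shDicer sample lay on 1 side of both wt samples and every shAgo2 sample on the other, and the direct test of the difference between the lines passed. All 5 were higher in shDicer, with log2 differences of 3.88 for LRATD2, 3.01 for XYLT1, 2.15 for TNC, 1.81 for PDE1C and 1.67 for SLC26A10P. In TNC the wt samples had 8.42 and 12.8 CPM and the higher shAgo2 sample 6.74, and in PDE1C the shDicer samples were 16.9 and 20.4 CPM over a wt level of 15.4 and 15.5. Both lines are set against the same 2 wt samples. No outlier test applies to groups of 2.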

How the results depend on the processing

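The number of genes higher in shDicer, 450, became 752 without a low-count filter, 1621 at a threshold of 0.05, 191 with counts scaled from TPM, 121 with unmatched transcripts kept, 115 with an absolute log2 difference above 1 and 161 with the neighbourhood offset. The number higher in shAgo2, 441, became 662, 1594, 192, 123, 174 and 194 under the same settings. DESeq2, RLE factors, library size only, the stricter filter and the 4 samples alone moved both by less than 1.5 times. Without 1 sample they ranged from 36 to 302 and from 71 to 273, in fits that assume that the lone sample of a line varies like the other groups. The cause of these shifts was not tested, apart from the threshold and the size limit. The replicate block gave 200 and 213 genes. Deviations of samples with the same number correlated at 0.0145 across genes, with 2 pairs only, and the labels do not say that numbers pair samples. No named gene that passed in either fit changed direction. Of 121 named genes that passed, 26 passed in all 14 other fits, 111 with DESeq2, 119 with RLE factors, 63 with counts scaled from TPM, 63 with the neighbourhood offset and 73 with the replicate block, and between 30 and 74 without 1 sample. Levels under 0.148 to 0.164 CPM, which is 3 counts in these 4 samples, could not be told from 0 at this depth.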
